A study of Mus musculus with 6 samples.

Results

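The 4 microRNAs (miRNAs) miR-674, miR-423-5p, miR-500 and miR-547 were described in left ventricles of mutant and wild-type mice. They are 4 of the 698 mature miRNAs listed in the deposited tables, and were chosen by name because they were higher in mutant hearts under every one of 4 scalings of the read counts. The mutant mice (R719W, n = 3) are labelled aMHC719/+ and carry 1 copy of the R719W mutation in Myh6, the gene of the α-myosin heavy chain, the motor protein that drives contraction in adult mouse ventricle. The wild-type mice (WT, n = 3) carry no such allele. Mice of both genotypes were treated for 3 weeks with cyclosporin, a drug that blocks calcineurin signalling, so each difference below is one between genotypes under that drug. Small RNA was sequenced from each left ventricle, and each library is labelled as a biological replicate. The age and sex of the mice are not given in the labels. The strain is a model of hypertrophic cardiomyopathy, in which the heart wall thickens through an inherited defect, often one of a myosin.

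A miRNA is a short RNA cut from 1 arm of a hairpin transcript. It is loaded into an Argonaute protein and guides it to messenger RNAs that pair with its seed, bases 2 to 8 from the 5′ end, which are then repressed. The other arm of the hairpin is usually degraded. Hairpins that lie close together are often cut from a shared primary transcript, and miRNAs with the same seed are predicted to share many target sites. miR-423-5p is known from human blood, where its level has been studied as a marker of heart failure. miR-500 belongs to a group of hairpins in an intron of Clcn5, which encodes an endosomal chloride and proton exchanger. miR-547 lies on the X chromosome near hairpins known from mouse testis. No role is given here for miR-674.

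The deposited sequences of the 4 miRNAs are shown to compare their seeds, in capitals. Each matched a mature miRNA in RefSeq (GRCm38.p6) in full, 4 of 4, where they are named miR-674-5p, miR-423-5p, miR-500-3p and miR-547-3p.
mmu-miR-674: gCACTGAGatgggagtggtgta
mmu-miR-423-5p: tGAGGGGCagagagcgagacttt
mmu-miR-500: aATGCACCtgggcaagggttca
mmu-miR-547: cTTGGTACatctttgagtgag

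The 4 seeds all differ, and so do the 4 first bases. The mature sequences are 22, 23, 22 and 21 bases long in that order. Their G and C content is 54.5% for miR-674, 56.5% for miR-423-5p, 54.5% for miR-500 and 42.9% for miR-547. miR-674 and miR-423-5p come from the 5′ arm of their hairpins, and miR-500 and miR-547 from the 3′ arm. Among the 698 listed entries, 1 other has the seed of miR-500, namely miR-501-3p, and 0 have the seed of miR-674, miR-423-5p or miR-547. The closest listed sequence lay at an edit distance of 4 from miR-500 (again miR-501-3p) and of 7 from each of the other members (miR-28*, miR-1902 and miR-342-5p for miR-674, miR-423-5p and miR-547, in that order).

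The miR-501-3p sequence is shown beside that of miR-500 because the pair shares its seed.
mmu-miR-500: aATGCACCtgggcaagggttca
mmu-miR-501-3p: aATGCACCcgggcaaggatttg

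Counted from 1 at the 5′ end, with the base of miR-500 first, the differences are T9C, G18A, C21T and A22G. All lie 3′ of the seed.

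The hairpins are shown with the member in capitals, from RefSeq (GRCm38.p6), 5′ to 3′, to place each miRNA in its precursor.
Mir674: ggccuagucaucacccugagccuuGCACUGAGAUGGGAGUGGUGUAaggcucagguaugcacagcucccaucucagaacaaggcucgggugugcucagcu
Mir423: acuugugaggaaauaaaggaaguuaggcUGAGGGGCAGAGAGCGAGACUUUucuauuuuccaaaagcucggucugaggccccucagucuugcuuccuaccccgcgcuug
Mir500: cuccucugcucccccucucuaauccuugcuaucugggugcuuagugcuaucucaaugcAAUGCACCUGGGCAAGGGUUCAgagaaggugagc
Mir547: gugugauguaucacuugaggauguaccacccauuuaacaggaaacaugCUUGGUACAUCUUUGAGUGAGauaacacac

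The 4 miRNAs come from 4 loci on 3 chromosomes. The Mir674 hairpin lies at chr2:117185127-117185226 on the plus strand, and in GENCODE M21 (GRCm38) it overlaps no gene other than its own. Mir423 lies at chr11:77078064-77078172 on the minus strand, within Nsrp1 on the same strand and outside its annotated exons. Mir500 lies at chrX:7237683-7237774 on the minus strand, within Clcn5 on the same strand and likewise outside its exons. Mir547 lies at chrX:67988374-67988451 on the minus strand and overlaps no other gene.

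Reads on listed miRNAs came to 1032928, 1168379 and 865845 in R719W replicates 1, 2 and 3, and to 817935, 765425 and 1192020 in WT replicates 1, 2 and 3. A total of 181 miRNAs had enough reads to be tested, all 4 members among them. miR-423-5p and miR-547 passed the filter on low counts (minimum count 10) through their R719W libraries, where they are high. Their WT reads, 7, 7 and 13 for miR-423-5p and 7, 14 and 3 for miR-547, would not have passed it alone. Levels are read counts scaled to the reads on listed miRNAs and then by TMM (TMM-normalised CPM), in which 3 reads are worth 2.40 to 4.06 depending on the library. Together the 4 miRNAs took 0.0398% to 0.0535% of the reads in R719W libraries and 0.0122% to 0.0170% in WT libraries. The 7 muscle miRNA entries, used to check the labelled tissue, were all detected, and 5 had enough reads to be tested. Their summed levels were 398350 to 547476 in R719W and 523747 to 786673 in WT. Most of the sum came from 1 entry, at a mean level of 492764 over the 6 libraries. The liver miRNA miR-122 had 3 reads over the R719W libraries and 0 over the WT libraries. The library barcodes named in the labels are 1 set for R719W and another for WT, so barcode and genotype cannot be told apart.

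miR-674, the most abundant of the 4, was at 332, 262 and 292 TMM-normalised CPM in R719W replicates 1, 2 and 3, and at 106, 106 and 115 in WT replicates 1, 2 and 3. These levels rest on 326, 327 and 309 reads in R719W and on 78, 87 and 114 reads in WT. The genotypes did not overlap, and the lowest R719W library lay 2.27 times above the highest WT library. The mean was 295 ± 35.4 in R719W and 109 ± 5.42 in WT (SD, n = 3 each), a 2.70-fold difference (log2 fold change 1.43, SE 0.19). The WT libraries were close to each other, with a coefficient of variation of 4.97%, and the R719W libraries were spread more widely.

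miR-423-5p, the least abundant of the 4, was at 24.4, 23.2 and 25.5 TMM-normalised CPM in R719W replicates 1, 2 and 3, and at 9.47, 8.54 and 13.1 in WT replicates 1, 2 and 3. Here the R719W libraries were nearly equal, and WT replicate 3 was the highest of its genotype without reaching any R719W library. The mean was 24.4 ± 1.14 in R719W and 10.4 ± 2.43 in WT (SD, n = 3 each), a 2.30-fold difference (log2 fold change 1.20, SE 0.30). The level in R719W rests on 24, 29 and 27 reads, and that in WT on 7, 7 and 13 reads. At such counts the exact 95% Poisson interval of 1 library is wide, 16.8 to 37.1 TMM-normalised CPM in R719W replicate 3 and 6.99 to 22.5 in WT replicate 3. Such intervals cover the counting error of reads only, and not differences between mice. The file headers name reads and no molecular identifiers, so copies of 1 molecule may not be told from separate molecules.

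miR-500 was at 31.6, 56.8 and 53.8 TMM-normalised CPM in R719W replicates 1, 2 and 3, and at 16.2, 26.8 and 15.2 in WT replicates 1, 2 and 3. R719W replicate 1 and WT replicate 2 came close to each other, at a ratio of 1.18, with 31 and 22 reads and overlapping Poisson intervals (21.5 to 44.8 and 16.8 to 40.6). The mean was 47.4 ± 13.8 in R719W and 19.4 ± 6.45 in WT (SD, n = 3 each), a 2.46-fold difference (log2 fold change 1.30, SE 0.33). The other 2 R719W libraries, with 71 and 57 reads, stood well above all WT libraries, which had 12, 22 and 15 reads.

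miR-547 showed both the largest difference and the widest spread of the 4. It was at 37.7, 30.4 and 66.0 TMM-normalised CPM in R719W replicates 1, 2 and 3, and at 9.47, 17.1 and 3.03 in WT replicates 1, 2 and 3. No WT library reached the lowest R719W library, which lay 1.78 times above the highest WT library. The mean was 44.7 ± 18.8 in R719W and 9.86 ± 7.03 in WT (SD, n = 3 each), a 4.61-fold difference (log2 fold change 2.21, SE 0.50). The WT libraries differed by 5.63-fold among themselves, on 7, 14 and 3 reads, and the R719W libraries by 2.17-fold, on 37, 38 and 70 reads. Set against counting error alone, which would give about 1, the spread between mice had a chi-square per degree of freedom of 8.91 in R719W and 4.70 in WT. The same measure was 4.67 in R719W and 0.242 in WT for miR-674, 4.11 in R719W and 1.83 in WT for miR-500, and 0.0616 in R719W and 0.509 in WT for miR-423-5p.

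**Figure D1:**
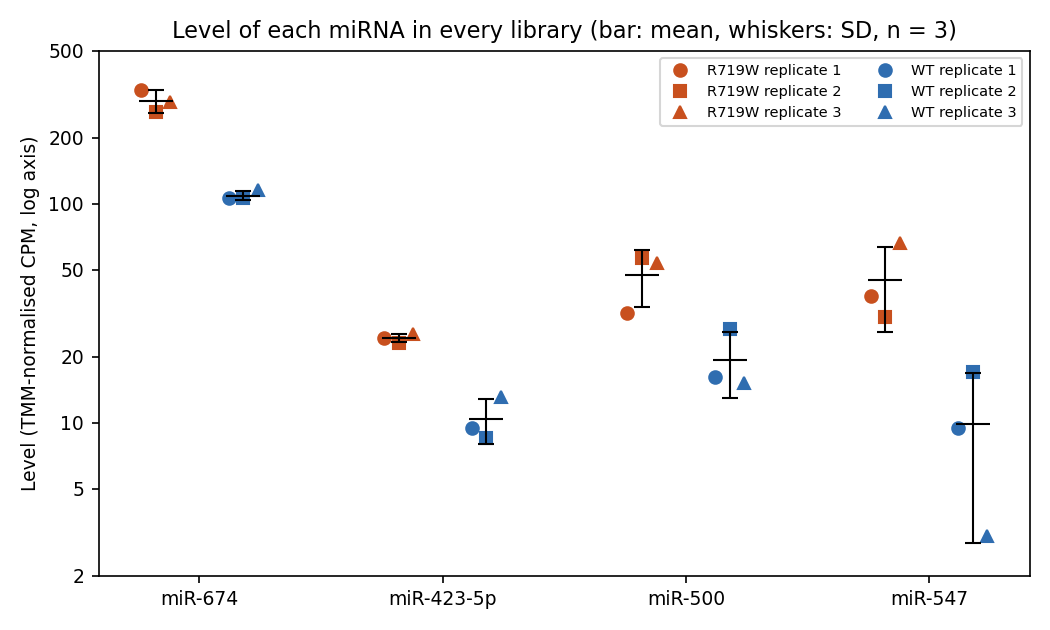
TMM-normalised CPM (log axis) of the 4 miRNAs in each library, R719W in orange and WT in blue, 1 marker shape per replicate number, with the mean as a bar and the SD as whiskers (n = 3 each). In each miRNA the 3 R719W points lie above the 3 WT points; the gap is narrowest in miR-500 (31.6 against 26.8) and the spread is widest in miR-547.

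The choice of the 4 rests on these values, so the contrast is given as a description and no test of it supports them. Of all 181 miRNAs, 23 (12.7%) were called higher in R719W at an adjusted p of 0.05 (edgeR's quasi-likelihood test, Benjamini-Hochberg adjustment), and 13 (7.18%) lower. The share called higher was 6.63% when the counts were scaled by DESeq2's size factors, 18.8% with totals of the libraries, and 7.73% with totals that leave out the 5 most abundant miRNAs. Under each of these and TMM alike, 11 (6.08%) were called higher, and the 4 members are among them by choice. Without overlap, R719W lay above WT in 45 (24.9%) of all tested miRNAs. The largest of the 4 adjusted p-values that each member gave under the scalings was 0.00241 for miR-674, 0.0254 for miR-547, 0.0396 for miR-423-5p and 0.0414 for miR-500 (edgeR). Just outside stood 4 miRNAs (2.21%) called higher under 3 of the 4 scalings, miR-132, miR-497, miR-541 and miR-433, with largest adjusted p-values of 0.0533, 0.0592, 0.0602 and 0.0667 (edgeR).

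In order of log2 fold change the members ranked 4th (miR-547), 7th (miR-674), 10th (miR-500) and 12th (miR-423-5p) of 181. The 7 other miRNAs called higher under all 4 scalings had log2 fold changes from 3.25 (miR-214) to 0.98 (miR-125a-5p). They also take in miR-411, miR-199a-5p, let-7i and both arms of the miR-21 hairpin. The members are of low to middling level, from rank 77 (miR-674) to rank 165 (miR-423-5p) of 181 by mean level over the 6 libraries, with miR-500 and miR-547 between.

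**Figure D2:**
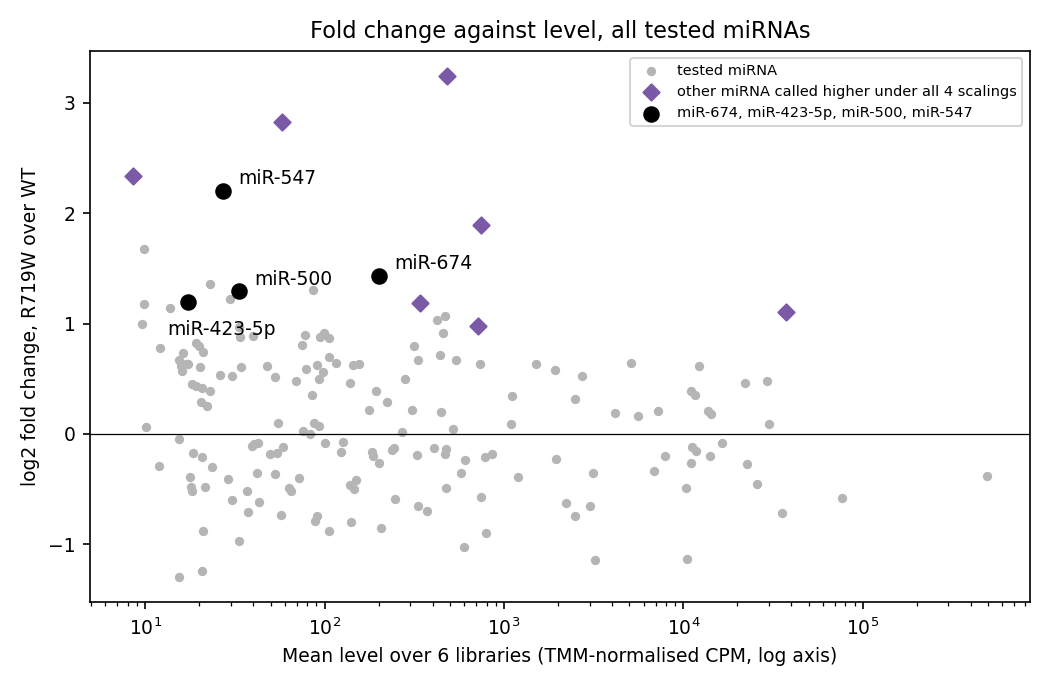
Log2 fold change of R719W over WT against the mean level over 6 libraries (TMM-normalised CPM, log axis) for the 181 tested miRNAs; black points are the 4 members and violet diamonds the 7 other miRNAs called higher under all 4 scalings. The members lie between mean levels of 17.4 and 202 with log2 fold changes of 1.20 to 2.21, above most miRNAs of like level.

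Of the 85 other miRNAs with mean levels from 17.4 to 202, the range of the members, 9 were called higher and 5 lower. Over all 181 tested, 12.7% were called higher and 7.18% lower. The median log2 fold change of the 85 was 0.07, against 0.10 over all 181. Of the 8 miRNAs next above or below a member in level, 0 were called higher by edgeR and 2 were called lower. Of these 8, 3 had an unadjusted p under 0.05 (edgeR) and 2 were called by DESeq2. Over all 181, 68 had an unadjusted p under 0.05 (edgeR) and 28 were called by DESeq2. Beside miR-674 stood miR-378*, which fell (edgeR adjusted p = 0.0325; log2 fold change −0.85, SE 0.24), a call lost with library totals (0.149), with totals that leave out the 5 most abundant miRNAs, the top 5 (0.0712), and without R719W replicate 3 (0.0896), WT replicate 1 (0.143) or WT replicate 3 (0.156). Also next to it was miR-17 (edgeR adjusted p = 0.527; log2 fold change −0.27, SE 0.31). Beside miR-500 stood miR-151-3p, which fell (edgeR adjusted p = 0.0258; log2 fold change −0.97, SE 0.25), a call lost with library totals (0.0945), with totals without the top 5 (0.0592) and without R719W replicate 3 (0.101), WT replicate 1 (0.111), WT replicate 2 (0.0747) or WT replicate 3 (0.107). The other was miR-199b* (edgeR adjusted p = 0.0819; log2 fold change 0.97, SE 0.35). The neighbours of miR-423-5p were the shared entry of let-7c-2* and let-7a* (−0.39, SE 0.37) and miR-339-3p (0.63, SE 0.32), and those of miR-547 were miR-339-5p (−0.41, SE 0.34) and miR-574-3p (0.53, SE 0.28), none of them called.

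The other arms of the hairpins were not used in the choice of members, but share a precursor with them. The pair from Mir674 and Mir423 is listed in the tables, and had too few reads for the test.
mmu-miR-674*: cACAGCTCccatctcagaacaa
mmu-miR-423-3p: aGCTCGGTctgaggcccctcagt

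miR-423-3p had 4, 6 and 5 reads in R719W replicates 1, 2 and 3, and 5, 4 and 2 reads in WT replicates 1, 2 and 3. Its level was 4.53 ± 0.397 TMM-normalised CPM in R719W and 4.56 ± 2.39 in WT (SD, n = 3 each), close to what 3 reads are worth. The genotypes overlapped. With no filter on low counts, a fit in which 7.49% of 387 miRNAs were called higher, its log2 fold change was −0.02 (edgeR adjusted p = 0.982), beside 1.11 for miR-423-5p. Of the reads on both arms, miR-423-5p took 85.7%, 82.9% and 84.4% in R719W replicates 1, 2 and 3, and 58.3%, 63.6% and 86.7% in WT replicates 1, 2 and 3. With the reads of each genotype added up, that is 80 of 95 reads (84.2%, exact 95% interval 75.3% to 90.9%) in R719W and 27 of 38 (71.1%, 54.1% to 84.6%) in WT. Intervals over added reads cover counting error only, and the difference between the genotypes was not tested.

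miR-674* had 0, 1 and 4 reads in R719W replicates 1, 2 and 3, and 3, 2 and 1 reads in WT replicates 1, 2 and 3. Over all 6 libraries this makes 11 reads, against 1241 for miR-674. miR-674 took 962 of the 967 reads on both arms in R719W (99.5%, exact 95% interval 98.8% to 99.8%) and 279 of 285 in WT (97.9%, 95.5% to 99.2%). The 5′ arm therefore accounts for nearly all reads of this hairpin in each genotype. With no filter the log2 fold change of miR-674* was −0.68 (edgeR adjusted p = 0.645). No entry named for the other arm of Mir500 or Mir547 was among those listed, so those arms were not analysed here.

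The Clcn5 group gave a second reading at the locus of miR-500. The RefSeq hairpins Mir501, Mir362, Mir188 and Mir532 start 3560, 4299, 10306 and 10719 bases from the start of Mir500, on the same strand and within Clcn5. The 8 listed entries named for these hairpins all had reads, and 2 had enough to be tested. miR-532-5p was placed here by name, since its deposited sequence matched no mature miRNA of Mir532 in RefSeq. Both had positive log2 fold changes and neither was called by edgeR, with 0 at an unadjusted p under 0.05 and 0 called by DESeq2. Of all 181 tested, 68 had an unadjusted p under 0.05 (edgeR) and DESeq2 called 28. The most abundant, miR-532-5p, was at 139, 162 and 179 TMM-normalised CPM in R719W replicates 1, 2 and 3, and at 127, 97.6 and 123 in WT replicates 1, 2 and 3. The genotypes did not overlap, by a small margin (edgeR adjusted p = 0.130; log2 fold change 0.46, SE 0.21). miR-188-5p was at 27.5, 14.4 and 19.8 in R719W and at 14.9, 13.4 and 11.1 in WT, with overlap (edgeR adjusted p = 0.181; log2 fold change 0.64, SE 0.34). The log2 fold change of miR-500 is larger than either, but was the ground for its choice, and the difference between these entries was not tested.

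miR-501-3p, which shares the seed of miR-500, had 20, 7 and 5 reads in R719W replicates 1, 2 and 3, and 2, 6 and 0 reads in WT replicates 1, 2 and 3. It was highest in R719W replicate 1, the library in which miR-500 was lowest of its genotype. miR-500 took 60.8% of the reads on the pair there (exact 95% interval 46.1% to 74.2%), against 91.0% (82.4% to 96.3%) and 91.9% (82.2% to 97.3%) in R719W replicates 2 and 3. In WT replicates 1, 2 and 3 the share was 85.7%, 78.6% and 100%. The sources used here do not say how reads close to both sequences were assigned. Added up, the pair was at 51.9, 62.4 and 58.5 TMM-normalised CPM in R719W replicates 1, 2 and 3, and at 18.9, 34.1 and 15.2 in WT replicates 1, 2 and 3. The sum was less spread than miR-500 alone in R719W and more spread in WT. It was at 57.6 ± 5.28 in R719W and 22.8 ± 10.1 in WT (SD, n = 3 each). For miR-500 alone these were 47.4 ± 13.8 in R719W and 19.4 ± 6.45 in WT. With no filter on low counts miR-501-3p had a log2 fold change of 1.53 (edgeR adjusted p = 0.0601).

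The hairpins near Mir547 gave almost no reads. Mir201, which starts 278 bases from the start of Mir547 on the same strand, gave miR-201, with 1, 5 and 1 reads in R719W replicates 1, 2 and 3, and 0, 1 and 1 reads in WT replicates 1, 2 and 3. In the same libraries miR-547 had 37, 38 and 70 reads in R719W, and 7, 14 and 3 in WT. Mir509 starts 21731 bases away, and its 2 entries had 0 reads in all libraries. No other RefSeq hairpin started within 200000 bases of the start of Mir547. A wider X-linked group was put together by name and not by position. It takes in miR-201, miR-463, miR-465, miR-741 and miR-743 among others. Of its 28 listed entries other than miR-547, 22 had 0 reads in every library. None of the other 6 had more than 5 reads in any library, and none could be tested. Their summed level was 3.06 to 6.40 TMM-normalised CPM in R719W and 2.44 to 5.41 in WT. Testis germ cell markers, most of them from the same group, were at 1.02 to 7.55 in R719W and 2.02 to 4.06 in WT, with 7 of 11 at 0 in all libraries. Within this named group, miR-547 was thus the one entry with more than 5 reads in any of these libraries.

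**Figure D3:**
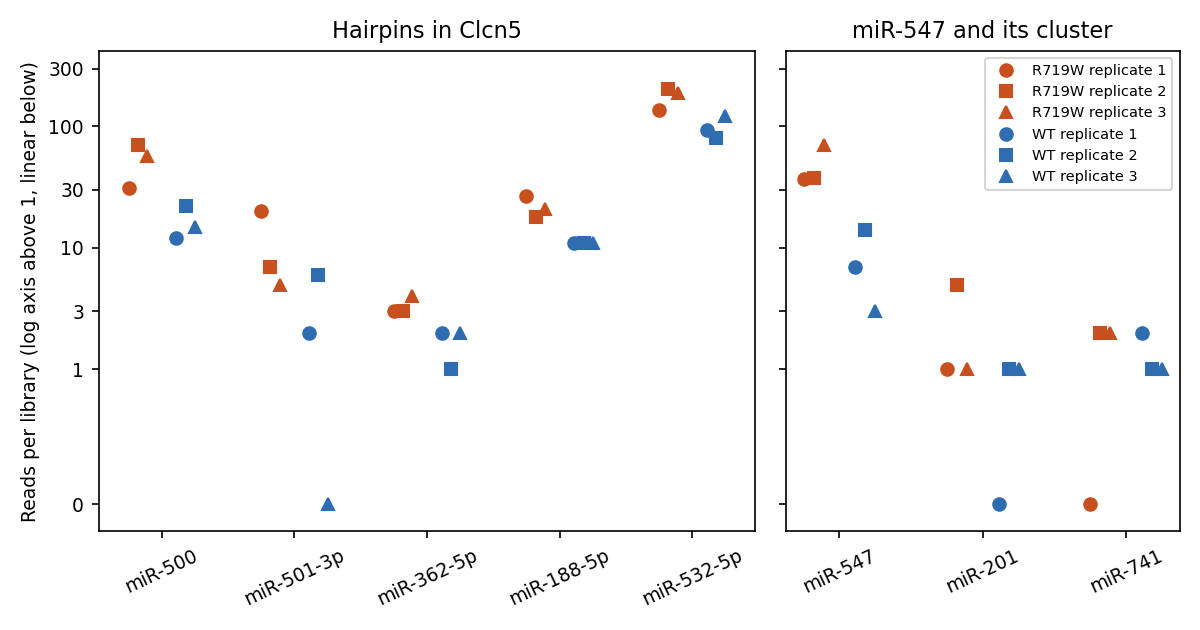
Reads per library for miR-500 and 4 entries of the other hairpins in Clcn5 (left), and for miR-547, its nearest neighbour miR-201 and miR-741 of the X-linked group listed by name (right), R719W in orange and WT in blue, on an axis that is logarithmic above 1 read and linear below. miR-501-3p is highest in R719W replicate 1 (20 reads), where miR-500 is lowest of its genotype (31), and miR-201 and miR-741 stay at 5 reads or fewer while miR-547 reaches 70.

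Because Mir500 and Mir547 are on the X chromosome, the other X-linked miRNAs were read as a group. Of the 14 others that were tested and matched X alone in RefSeq, 1 was called higher (miR-652) and 13 were not called, against 12.7% called higher of all tested. The call of miR-652 (edgeR adjusted p = 0.0258) was lost with DESeq2's size factors (0.0522), with totals without the top 5 (0.0592), with no filter (0.0674), with the replicate number as a block (0.0586) and on leaving out any library but R719W replicate 1 (0.0502 to 0.171). A positive log2 fold change was found in 12 of the 14, with a median of 0.29, against 99 of 181 (54.7%) and a median of 0.10 over all tested miRNAs. Their summed level was 6404 to 6475 TMM-normalised CPM in R719W and 4988 to 5503 in WT. Most of that sum was 1 entry that was not called, at a mean level of 4143 over the 6 libraries.

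The miRNAs whose levels ran most like each member were found by the root-mean-square difference of log2 levels (TMM-normalised CPM plus 1), each centred on its own mean, over the 6 libraries. Since the members were chosen for a difference between genotypes, miRNAs with a like difference come first by construction. Closest to miR-674 was miR-423-5p (0.20), followed by let-7i at 0.28 and by miR-125a-5p at 0.30, where the median over tested miRNAs was 0.77. miR-674 and miR-423-5p, from different chromosomes and with unlike sequences, were each other's nearest. After miR-674, miR-423-5p was closest to the 3′ arm entry shared by miR-199a and miR-199b (0.26) and to miR-376a (0.29), with a median of 0.69. miR-500 was closest to miR-379 (0.30), miR-99b* (0.33) and miR-411 (0.34), with a median of 0.77. Those closest to miR-547 lay further off, miR-199a-5p at 0.63, miR-21 at 0.70 and miR-341 at 0.74, but its median was larger too, at 1.33. Its WT levels rest on 7, 14 and 3 reads, so counting error enters these distances.

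Among entries known as markers of cell types, most of the fibroblast ones were higher in R719W, where the 4 miRNAs were higher too. Of the 4 fibroblast entries (miR-214 and the miR-199 entries), all detected and tested, 3 were called higher, against 12.7% of all tested, and their summed level was 1010 to 1377 TMM-normalised CPM in R719W and 192 to 225 in WT. One of these calls, that of the shared entry of miR-199b and miR-199a-3p, was lost with DESeq2's size factors (edgeR adjusted p = 0.0522), with totals without the top 5 (0.0586) and with DESeq2 (adjusted p = 0.0517), which called 2 of the 4. Of the 7 leukocyte entries, all detected, 6 were tested, 2 were called lower (miR-150 and miR-342-3p), against 7.18% of all tested, and 0 higher. Of those 6, 3 had a positive log2 fold change, the median was 0.02, and the sum was 1120 to 1497 in R719W and 907 to 1044 in WT. The call of miR-150 was lost with library totals (edgeR adjusted p = 0.16), with totals without the top 5 (0.0592) and with the replicate number as a block (0.0577). Of the 5 tested muscle entries, 1 was called lower, miR-499, a miRNA encoded in a myosin heavy chain gene (edgeR adjusted p = 0.00808; log2 fold change −1.14), 4 were not called, 1 was positive, and the median was −0.38. Leaving out WT replicate 1 or WT replicate 3 ended the calls of miR-499 (0.0558 and 0.0669), miR-150 (0.111 and 0.107), miR-342-3p (0.0857 and 0.102) and the shared miR-199 entry (0.176 and 0.107). Leaving out R719W replicate 3 ended those of miR-150 (0.0694), miR-342-3p (0.0763) and the shared entry (0.146), and leaving out WT replicate 2 those of miR-342-3p (0.0555) and the shared entry (0.0646). The 2 endothelial entries summed to 15193 to 16805 in R719W and 17980 to 22206 in WT, the 2 of smooth muscle to 17214 to 25584 in R719W and 20924 to 36206 in WT, and the 3 erythroid entries to 1361 to 2570 in R719W and 1966 to 3301 in WT, with none called. Neuronal entries summed to 43.8 to 58.5 in R719W and 57.3 to 67.7 in WT, with miR-124 at 0 reads, and epithelial entries to 6.11 to 7.55 in R719W and 4.04 to 11.0 in WT, with miR-205 at 0 reads. In whole ventricle, more cells of a type and more RNA per cell cannot be told apart. The part of these cell types in the levels of the 4 miRNAs was not tested.

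The fits below reuse the counts on which the 4 miRNAs were chosen, so their values describe the 4 and support nothing. The log2 fold change of miR-674 stayed between 1.29 and 1.46 when each library was left out in turn, and remained past the threshold by which it was chosen in 6 of 6 such fits. That of miR-423-5p stayed between 1.06 and 1.41 and remained past it in 2 of 6, and DESeq2 in place of edgeR gave it an adjusted p of 0.0853, in a test that called 6.63% of all tested miRNAs higher. That of miR-500 ran from 1.03 without R719W replicate 2 to 1.59 without WT replicate 2, past the threshold in 2 of 6. miR-547 ran from 1.71 (3.28-fold) without WT replicate 3 to 2.88 (7.36-fold) without WT replicate 2, past the threshold in 3 of 6. The fits without R719W replicate 3, WT replicate 1 or WT replicate 3 kept miR-674 alone past it. Those fits also called fewer miRNAs higher in all, 3.17%, 2.07% and 2.15%, against 17.5%, 12.5% and 6.35% without R719W replicate 1, R719W replicate 2 or WT replicate 2. None of the 13 alternatives turned the sign for any of the 4.

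**Figure D4:**
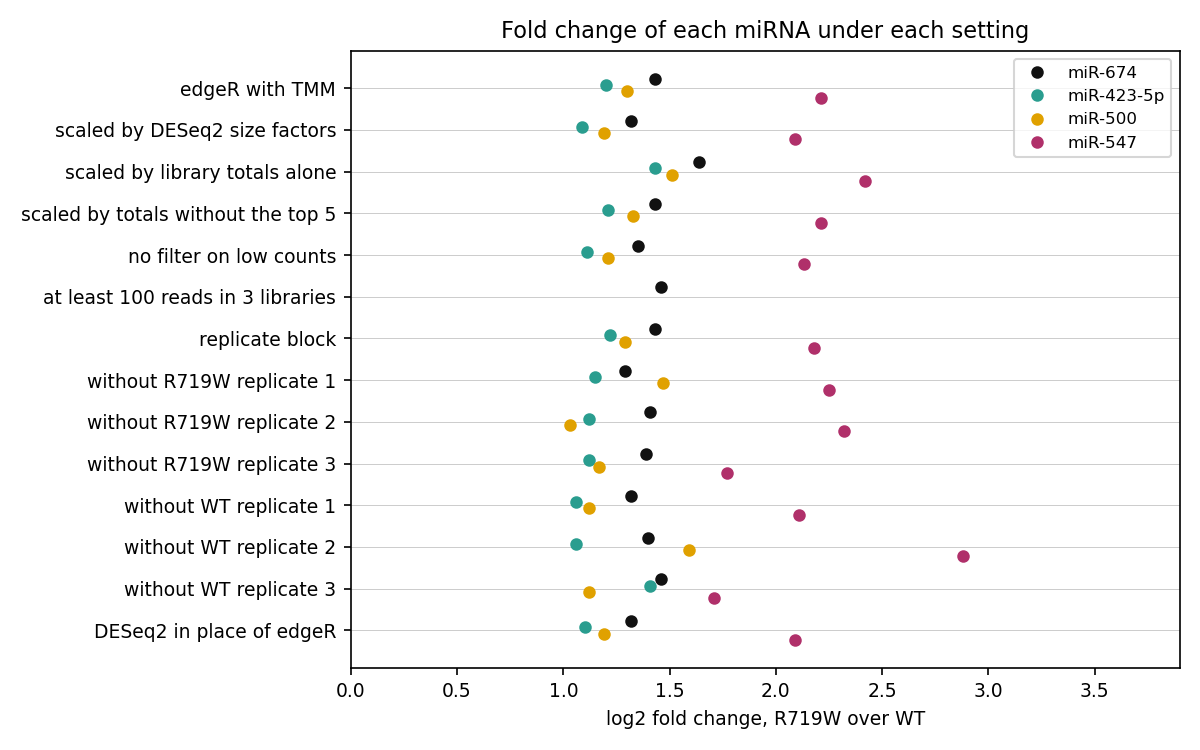
Log2 fold change of R719W over WT for the 4 miRNAs under the reported fit (top row) and 13 alternatives, 1 colour per miRNA; at least 100 reads in 3 libraries leaves miR-674 alone. All values lie above 0, from 1.03 (miR-500 without R719W replicate 2) to 2.88 (miR-547 without WT replicate 2).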

How the data were processed

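Multiplexed miRNA libraries were made from total RNA, per the labels' protocols. The sources used here give no aligner, mismatch limit, miRNA release or genome build. Per the file headers, the authors deposited read counts and a normalized value for each library. The deposited normalized value equals CPM over the 698 listed miRNAs (relative gap at most 4.6e-15) and was used for that check alone. The barcode in a column's header and in a sample's description ties the column to its sample.

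The counts were fitted with edgeR 4.0.16 (R 4.3.3) after filterByExpr on genotype (minimum count 10, total 15) and TMM scaling (factors 0.83 to 1.224). The two-sided quasi-likelihood test was adjusted by Benjamini-Hochberg over the 181 miRNAs left, with calls at 0.05. The biological coefficient of variation was 22.5%. A standard error is the size of the log2 fold change over the square root of F. The alternatives were DESeq2 1.42.0, its size factors, library totals, totals without the 5 most abundant miRNAs, no filter, at least 100 reads in 3 libraries, a replicate block, and fits without each library. In 20 simulated sets of the 181 miRNAs with 40 changed, the test recovered 69.8% of the 2-fold and 96.2% of the 4-fold changes, and 5.11% of calls were false. Those sets took their dispersions from this same fit, with as many rises as falls and library totals as the only scaling. The shares therefore hold under the fit's own model and were not measured on these data.

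The 4 members and the lists of neighbours and markers were chosen with earlier results of these data known. Apart from the members, the miRNAs named were the other arms, entries at the same loci and entries of the X-linked group. Named too were the entries nearest in sequence, seed and level, and the 3 most alike in pattern. Those called higher under all 4 or 3 of the scalings were also named. From their lists came miR-652, the 2 lower leukocyte entries, miR-499 and miR-122. Of the listed sequences, 538 matched a RefSeq mature miRNA.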

Additional observations from a re-analysis of the deposited data

How the results depend on the processing

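Of 49 values of the 4 members' log2 fold changes under the alternatives, 46 moved by less than 1 SD between replicates, 3 moved by more (miR-674 to 1.64 and miR-423-5p to 1.43 with library totals alone, and miR-674 to 1.29 without R719W replicate 1), and 0 changed sign. The members were chosen for a rise under every scaling, so the kept sign was largely set by that choice. It describes them and supports nothing. Of 385 such values of 31 other named miRNAs, 0 changed to the other sign with a call, 101 lost a call and 4 gained one. Over all tested miRNAs, 23 were called higher and 13 lower in R719W. Scaling by the size factors of DESeq2 gave 12 higher and 15 lower, by library totals 34 higher and 3 lower, and by totals that leave out the 5 most abundant miRNAs 14 higher and 6 lower. The counts were 12 and 16 with DESeq2 in place of edgeR, and 12 and 10 with at least 100 reads in 3 libraries, where fewer miRNAs were tested; beyond that, the cause was not tested. Leaving out 1 library gave 4 to 32 higher and 0 to 24 lower. With the replicate number as a block, 20 were higher and 10 lower. Same-numbered libraries did not deviate together (correlations −0.188, −0.392 and 0.012), so the number was not taken as a pairing. miR-423-5p and miR-547 rest on 3 to 14 reads in each WT library.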
